A study of Mus musculus with 12 samples.

Results

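A set of 5668 regions of the mouse genome was open in naive CD4+ T cells and had no called peak after polarization to Th1 or Th2. The regions came from ATAC-seq, in which the transposase Tn5 cuts and tags accessible DNA, and from the list of called peaks of each of 12 libraries. Overlapping peaks of all lists were merged into 110642 regions on chromosomes 1 to 19 and X. A region was kept as naive-only where all 4 naive libraries and none of the 8 Th1 and Th2 libraries had a peak. This was 5668 of the 30551 regions with a peak in all 4 naive libraries (naive-open regions), or 18.6%, which is the background for each count of naive-only regions given here. Members were chosen by presence and absence of peaks in all 12 lists, so their openness in naive cells is a description and was given no test.

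The groups were Th1 knockout, Th1 wild type, Th2 knockout, Th2 wild type, naive knockout and naive wild type, with 2 libraries each. Knockout mice (C57BL/6J-Ets1-SE-KO) are, by their label, knocked out for a super-enhancer (a group of clustered enhancers) of Ets1, a transcription factor gene, and wild-type mice were C57BL/6J. The age of the animals was not given in the sources used here. Spleen cells were depleted of red cells and enriched for naive CD4+ cells with negative selection beads. Th1 cells were grown for 6 days on plate-bound anti-CD3 with soluble anti-CD28, IL-12 and IL-2, and Th2 cells for 6 days on anti-CD3 and anti-CD28 with IL-4 and an antibody to interferon-gamma. Activation and culture are therefore shared by all polarized groups and by no naive group. The naive libraries of a genotype were technical replicates of 1 biological sample, and 2 libraries taken here as Th2 knockout carry Th1 in their titles and Th2 in their source names.

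Polarized lists held 34746 to 56357 peaks, naive knockout lists 41075 and 43823, and naive wild-type lists 52571 and 56195. The median −log10 q-value, the authors' confidence in a peak, was 3.39 to 4.14 in polarized lists, 4.93 and 5.67 in naive knockout lists and 8.20 and 9.78 in naive wild-type lists. A missing peak means that none was called, and read depth is unknown. Peak names carry 1 run code in all naive lists and another in all polarized lists, so run code and cell state cannot be told apart. Of the 21 T cell identity genes (Cd3e, Cd4, Bcl11b and others), all had a region with a peak in each of the 12 libraries. Markers of cells that a naive preparation can hold were also near open regions. The 12 B cell genes had 36 to 57 regions with a peak in polarized libraries, 58 and 65 in naive knockout libraries and 44 and 38 in naive wild-type libraries. Among them, Ebf1 had 15 to 22 in polarized and 7 to 11 in naive libraries, and Bank1 5 to 15 and 5 to 8. The counts of Cd22 and Cr2 overlapped between polarized and naive libraries. Cd79b went the other way, with 5 and 7 in naive knockout, 3 and 3 in naive wild-type and 0 to 2 in polarized libraries. Ms4a1 had 2 and 2 in naive knockout libraries and 0 in all others. The 11 red cell genes had 16 to 25 in polarized libraries, 34 and 39 in naive knockout libraries and 23 and 22 in naive wild-type libraries. The 12 myeloid genes had 21 to 34 in polarized libraries, 33 and 38 in naive knockout libraries and 40 and 45 in naive wild-type libraries. The 12 genes of CD8 T cells and NK cells had 26 to 37 in polarized libraries, 31 and 33 in naive knockout libraries and 40 and 41 in naive wild-type libraries. The part of such cells in the naive-only regions was not tested, and in bulk libraries fewer cells with an open region and weaker opening per cell cannot be told apart.

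A naive T cell circulates through lymphoid organs in a quiescent state that factors such as FOXP1, BACH2, TCF1 (gene Tcf7) and LEF1 help to maintain. Stimulation through the T cell receptor and CD28 starts growth and division, and cytokines then steer the cell to Th1, which makes interferon-gamma, or Th2, which makes IL-4, IL-5 and IL-13. Many enhancers change their accessibility on this path, whereas promoters rich in CpG dinucleotides are commonly open in most cell types.

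No genome sequence was used, so the sequences shown are those of gene starts that fell inside naive-only regions, from RefSeq (GRCm38.p6). Each is the 250 bases before the start, on the gene's strand. Capitals mark a 6-base word of ETS factors (GGAAGT or its reverse complement ACTTCC) or of TCF1 and LEF1 (CTTTGA or TCAAAG). Cd247, which encodes the CD3 zeta signalling chain, and Ubash3a, a phosphatase-like inhibitor of T cell receptor signalling, are among the members at starts with the highest ranks. Lef1, Cd3d, which encodes the CD3 delta chain, and Pik3ip1, an inhibitor of PI3 kinase, were picked after their values were seen. Mcm5, a subunit of the replicative helicase, is shown for contrast, since its start lies in a region with a peak in all 12 libraries.

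Cd247 (+ strand, start inside the gene body, chr1:165788431-165788680): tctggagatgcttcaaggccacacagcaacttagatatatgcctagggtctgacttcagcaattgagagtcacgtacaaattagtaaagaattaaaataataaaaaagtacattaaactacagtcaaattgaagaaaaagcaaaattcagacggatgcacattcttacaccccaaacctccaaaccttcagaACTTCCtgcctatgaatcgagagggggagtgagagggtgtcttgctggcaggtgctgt
Ubash3a (+ strand, chr17:31207816-31208065): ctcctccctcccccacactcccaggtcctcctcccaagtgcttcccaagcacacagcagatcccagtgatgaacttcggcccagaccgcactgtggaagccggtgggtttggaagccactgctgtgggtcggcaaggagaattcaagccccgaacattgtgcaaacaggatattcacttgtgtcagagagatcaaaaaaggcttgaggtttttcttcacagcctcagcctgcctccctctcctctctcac
Pik3ip1 (+ strand, start inside the gene body, chr11:3330481-3330730): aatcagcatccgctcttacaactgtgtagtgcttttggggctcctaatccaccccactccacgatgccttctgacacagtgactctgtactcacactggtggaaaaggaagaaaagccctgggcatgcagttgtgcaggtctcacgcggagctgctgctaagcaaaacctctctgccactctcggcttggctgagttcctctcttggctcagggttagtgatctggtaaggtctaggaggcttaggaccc
Lef1 (+ strand, start inside the gene body, chr3:131156044-131156293): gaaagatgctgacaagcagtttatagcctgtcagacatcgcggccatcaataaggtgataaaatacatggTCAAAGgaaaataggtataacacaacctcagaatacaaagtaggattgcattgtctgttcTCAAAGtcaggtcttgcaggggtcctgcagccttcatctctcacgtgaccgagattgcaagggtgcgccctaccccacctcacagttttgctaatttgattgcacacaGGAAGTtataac
Cd3d (+ strand, chr9:44981536-44981785): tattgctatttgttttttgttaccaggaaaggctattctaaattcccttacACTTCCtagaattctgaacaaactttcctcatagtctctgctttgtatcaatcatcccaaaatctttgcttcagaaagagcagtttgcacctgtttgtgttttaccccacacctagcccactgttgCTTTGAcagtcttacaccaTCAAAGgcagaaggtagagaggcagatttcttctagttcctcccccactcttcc
Mcm5 (+ strand, kept in all libraries, chr8:75109259-75109508): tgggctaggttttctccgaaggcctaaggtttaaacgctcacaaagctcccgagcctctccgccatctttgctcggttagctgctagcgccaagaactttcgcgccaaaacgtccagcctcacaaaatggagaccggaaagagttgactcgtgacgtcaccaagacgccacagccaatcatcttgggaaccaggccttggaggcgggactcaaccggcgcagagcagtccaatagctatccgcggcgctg

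The 5 naive-only sequences hold 0 to 5 CpG, with none in Cd3d and 3 in Cd247, whereas Mcm5 holds 19. The Cd247 region (chr1:165788446-165788891) had −log10 q-values of 6.24 and 11.3 in naive knockout libraries and 37.6 and 38.5 in naive wild-type libraries. The Ubash3a region (chr17:31207805-31208257) had 5.60 and 8.67 in naive knockout libraries and 30.0 and 49.2 in naive wild-type libraries. The Pik3ip1 region (chr11:3330486-3330891) had 5.67 and 7.99 in naive knockout and 10.7 and 14.4 in naive wild-type libraries. These scores depend on each library's depth, so they rank peaks within a list and are not compared between genotypes. The Lef1 sequence precedes a start 46.0 kb inside the gene, in the region chr3:131156282-131156708. It holds the TCF and LEF word 2 times and the ETS word 1 time. Most of this sequence lies outside the naive-only region, as do both TCF and LEF words, 180 and 120 bases before the start. The ETS word, 12 bases before the start, lies across the edge of the region. The listed starts of Cd247 and Pik3ip1 also lie inside the annotated gene, 8.73 and 11.5 kb from its 5′ end, so these sequences do not show the region before the gene's 5′ end. Within 1 kb of the listed Cd247 start lay also a region with a peak in all 12 libraries.

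Naive-open regions fell mostly at the ends of the scale of polarized libraries. Besides the 5668 with a peak in 0 of 8 polarized libraries, 14561 (47.7%) had one in all 8, called kept regions here, and 10322 lay between, with 1143 to 2154 at each count of 1 to 7. Absence was mostly shared by Th1 and Th2: 7423 naive-open regions (24.3%) had no peak in Th1 libraries and 6951 (22.8%) had none in Th2 libraries. Only 167 had none in Th1 and a peak in all 4 Th2 libraries, and 87 had none in Th2 and a peak in all 4 Th1 libraries. Just outside the rule lay 1609 regions with 4 naive and 1 polarized library, where that 1 peak had a median percentile rank of 14.1 to 19.4 within its list, and 3595 regions with 3 naive and 0 polarized libraries. The naive library without a peak in the 3595 was a knockout library in 1902 and 1144 of them and a wild-type library in 346 and 203.

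**Figure D1:**
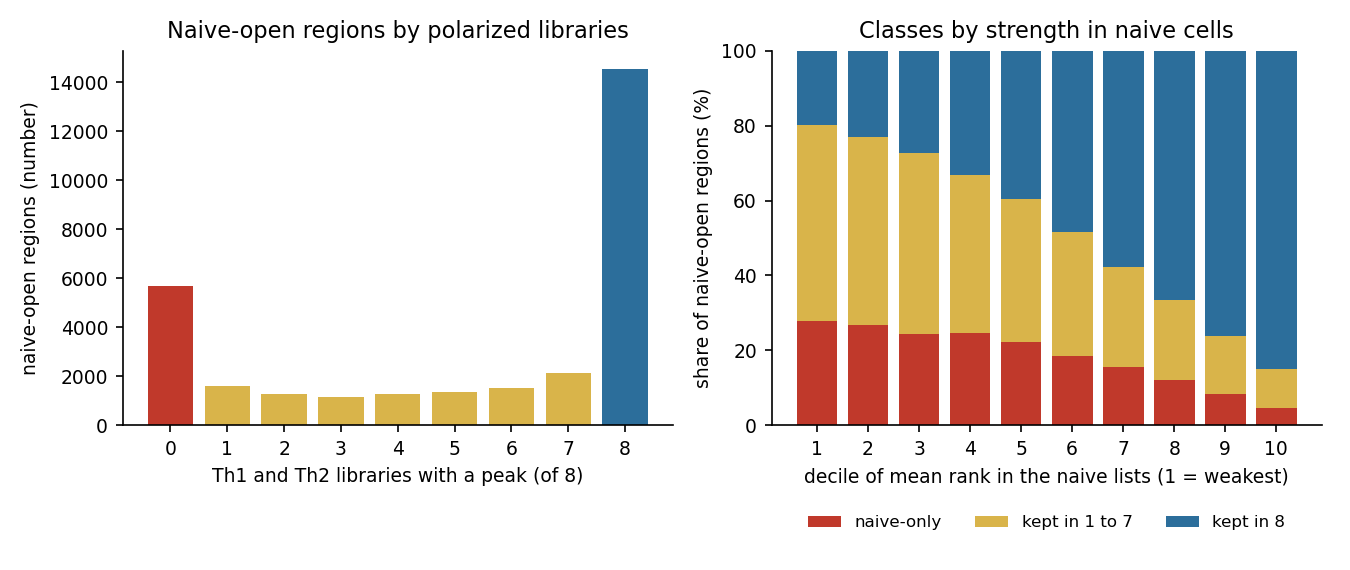
Left, the number of naive-open regions (vertical axis) by the number of Th1 and Th2 libraries with a peak (horizontal axis), with 5668 at 0 and 14561 at 8. Right, the share (%) of naive-only, partly kept and fully kept regions in each decile of the mean rank in the naive lists, where the naive-only share is 27.9% in the weakest decile and 4.71% in the strongest.

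Naive-only regions were weaker and narrower than kept regions in every naive list. Each peak was ranked by its −log10 q-value within its own list, from 0 to 100. Each region took the values of its highest-ranked peak, and merged regions outside chromosome 18 were wider where kept (median 977 against 496 bp). The rule used the same peak calls, so these ranks and widths are a description and no independent result. Naive-only regions had median ranks of 44.8 and 48.1 in naive knockout lists and 64.7 and 67.9 in naive wild-type lists, against 77.7, 79.2, 78.3 and 79.1 for kept regions in the same lists. The authors' fold enrichment over local background had medians of 4.58, 4.75, 5.89 and 6.42 for naive-only regions, against 6.07, 6.23, 6.96 and 7.31 for kept regions, in the same order of lists. Median peak widths were 343 to 444 bp in naive-only regions and 580 to 621 bp in kept regions. The median ranks of regions kept in 1 to 7 libraries were near those of naive-only ones, at 47.2, 50.2, 59.8 and 62.5. The share of naive-only regions was lower at higher ranks, down to 4.71% (144 regions) in the strongest decile. A rank of at least 90 in all 4 naive lists was reached by 105 naive-only and 2528 kept regions.

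**Figure D2:**
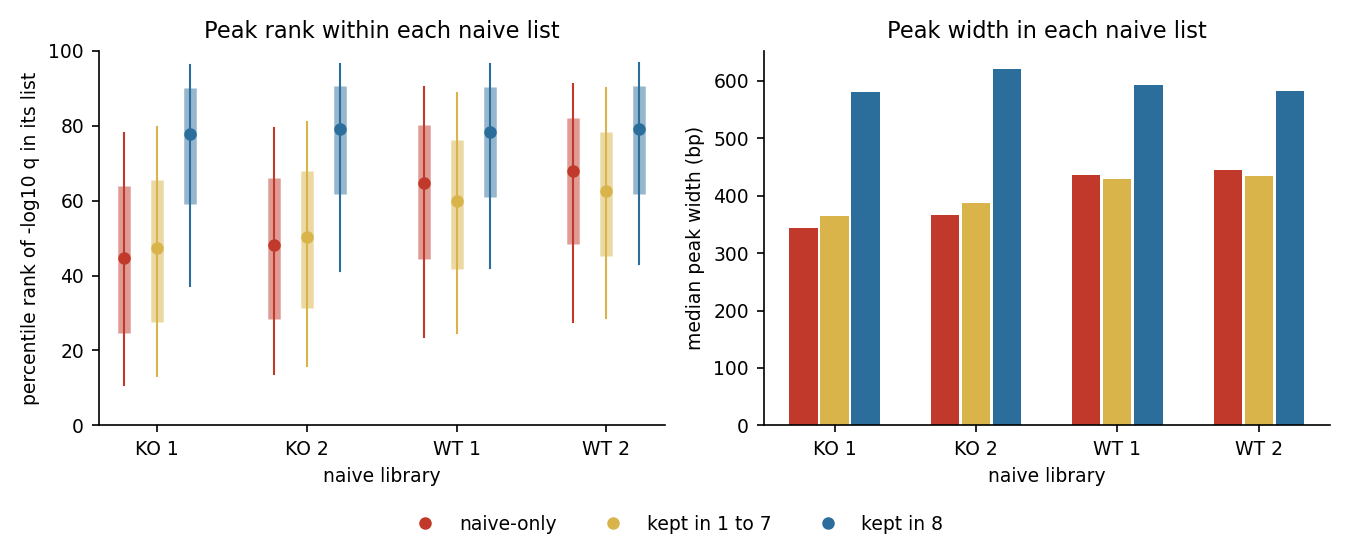
Left, percentile rank of the −log10 q-value within each naive list (vertical axis) for naive-only, partly kept and fully kept regions; points are medians, thick bars the 25th to 75th and thin lines the 10th to 90th percentile. Right, median peak width (bp) in the same lists; naive-only bars reach 343 to 444 bp and fully kept bars 580 to 621 bp.

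The strongest naive-only regions lay far from gene starts, and some of them were near genes with known roles in T cells. The one with the highest mean rank, chr12:28834112-28834799 within Eipr1, which encodes a factor of endosome transport, had −log10 q-values of 48.0 and 59.5 in naive knockout libraries and 179 and 229 in naive wild-type libraries. The region chr1:94091666-94092234 lay 39.1 kb from the start of Pdcd1, which encodes the inhibitory receptor PD-1, and had 40.5 and 52.6 in naive knockout and 177 and 231 in naive wild-type libraries. The region chr1:128614654-128615315 lay 22.4 kb from Cxcr4, a chemokine receptor gene, and had 45.9 and 47.8 in naive knockout and 140 and 148 in naive wild-type libraries. Each of these was in the top 2% of all 4 naive lists and had no called peak in any polarized library. The other 7 of the 10 strongest had as nearest listed start that of Hs3st5, Olig3, Adamts14, Zfp800, Adamts20, Ostm1 or Stxbp3.

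Most naive-only regions were far from gene starts. Of the 5488 outside chromosome 18, for which no starts were used, 281 (5.12%) lay within 1 kb of a listed start of a protein-coding or long non-coding RNA (lncRNA) gene, against 54.0% of kept regions and 31.2% of all naive-open regions. Among regions kept in 1 to 7 libraries the share was 13.3%. Naive-only regions lay a median 21.1 kb from the nearest start, against 9.89 kb for all naive-open regions, and 58.3% of them overlapped a gene body. Within each decile of naive rank, 1.21% to 7.89% of naive-only and 37.2% to 68.2% of kept regions were within 1 kb of a start. The start table covers 79.9% of protein-coding genes, so distances are upper bounds. With both ends of the uncovered genes counted as possible starts, 8.80% of naive-only regions were within 1 kb.

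The starts of protein-coding genes that did lie in naive-only regions were poor in CpG. A start of either kind of gene lay in 136 naive-only regions, and 77 of them held a start of a protein-coding gene. Words and CpG were counted at these protein-coding starts alone, 81 starts of 76 genes, of which 24 lie over 1 kb inside the annotated gene. In the 300 bases from 250 before to 50 after the start they had a median GC content of 50.0% and 5 CpG, and 21% had at least 10 CpG. The 8652 starts in kept regions had a median of 62.0% GC and 23 CpG, and 92.6% had at least 10 CpG; over all 21045 protein-coding starts of the table the values were 56.7%, 13 and 57.3%. The highest mean ranks among them were at Chil5 and Cfap97d2. The genes also included Cd247, Ubash3a and Cd101, an inhibitory surface protein of T cells and myeloid cells, and Gpr15, a homing receptor of T cells. The listed starts of Cytip, a regulator of lymphocyte adhesion, and P2ry14, a receptor for UDP-sugars, were also among them, 35.4 and 22.7 kb inside these genes. A kept region also lay within 1 kb of the listed starts of Cd247 and Cytip. Genes of B cells and myeloid cells, such as Blnk, H2-Eb2 and Itgam, were in the set too, so it is not one of T cell genes alone. The Blnk region had percentile ranks of 65.3 and 59.7 in naive knockout lists and 3.99 and 10.4 in naive wild-type lists. That of Itgam had 23.6 and 27.6 in naive knockout and 63.5 and 66.2 in naive wild-type lists.

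Exact words for 6 factor families were counted on both strands of these 300-base windows. A window can reach beyond the region that holds the start, as at Lef1. The TCF and LEF word CTTTGA was in 30.9% of the 81 starts in naive-only regions, against 11% of starts in kept regions and 14.4% of all starts. The ETS word GGAAGT was in 39.5%, against 31.3% and 25%, and the RUNX word TGTGGT in 21%, against 11.5% and 14.7%. The forkhead word TGTTTAC was in 2.47%, against 2.37% and 3.03%, the KLF word GGGTGTG in 9.88%, against 7.59% and 8.09%, and the AP-1 word TGACTCA in 2.47%, against 2.79% and 4.69%. Base composition differed between these groups, so the words were counted again in windows with under 10 CpG. There, the TCF and LEF word was in 39.1% of 64 starts in naive-only regions, against 18.8% of 643 in kept regions and 20.5% of all 8985. In the same windows the ETS word was in 40.6%, against 35.1% and 23.9%, and the RUNX word in 26.6%, against 22.7% and 21%. A word match is no evidence of a bound factor, and starts are few of the members.

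**Figure D3:**
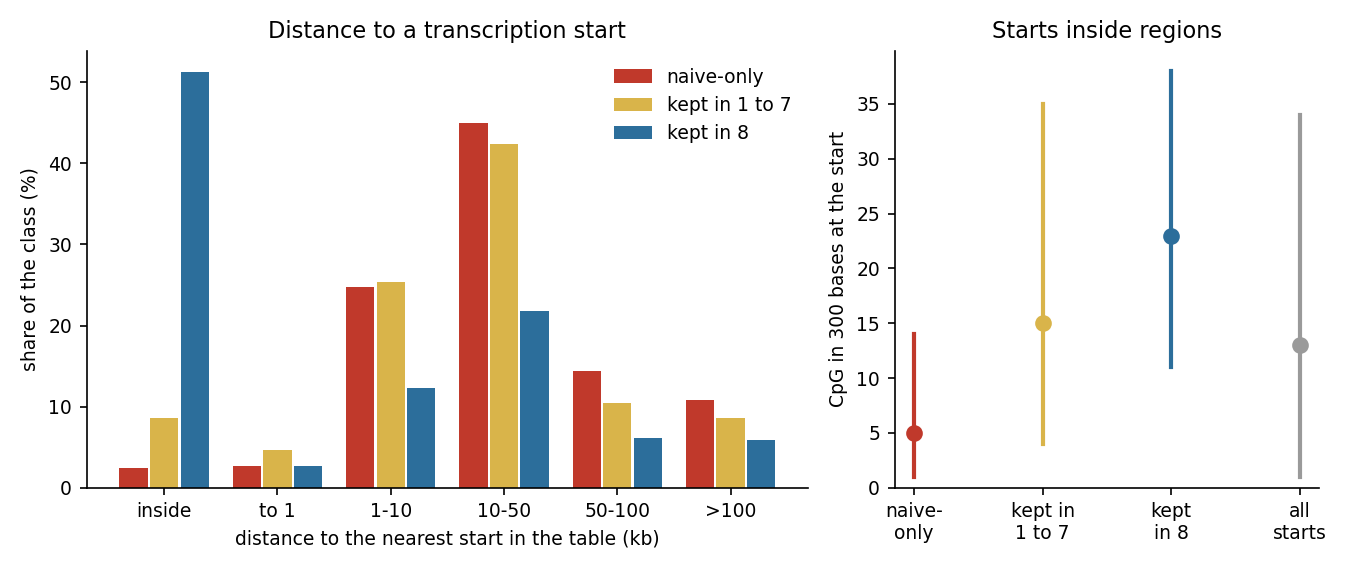
Left, the share (%) of naive-only, partly kept and fully kept regions by distance (kb) to the nearest start of a protein-coding or lncRNA gene, where 2.48% of naive-only and 51.3% of fully kept regions hold a start. Right, CpG in the 300 bases at starts of protein-coding genes inside each class and at all such starts of the table (points: medians; lines: 10th to 90th percentile), with medians of 5 for naive-only and 23 for fully kept regions.

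Naive-only regions made up a larger share of the naive-open regions near genes of naive homing and quiescence than over all regions, and none of those near cell cycle genes. Regions were assigned to a gene where they overlapped its body with 20 kb on each side. Of 175 naive-open regions near 22 genes of naive homing and quiescence, 63 (36.0%) were naive-only, with at least 1 at 17 of the genes. T cell identity genes followed with 44 of 141 (31.2%), myeloid genes with 6 of 21 (28.6%), TGF-beta and SMAD genes with 19 of 67 (28.4%), cytokine receptor genes with 24 of 86 (27.9%) and ETS family genes with 27 of 100 (27.0%). These 6 lists stood above the share over all regions, 18.6%, and they did so in each of the 25 other settings tried, but for the myeloid list, which did so in 24. T cell receptor signalling genes were closer to it, with 34 of 159 (21.4%). Chemokine receptor genes had 9 of 44 (20.5%), genes of regulatory T cells 12 of 50 (24.0%) and Th17 genes 5 of 23 (21.7%).

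Cell cycle, AP-1 and activation, Th2, follicular helper and housekeeping genes had lower shares than the 18.6% over all regions, and the share of Th1 genes was near it. Cell cycle genes such as Mki67, Top2a and Ccnb1 had 0 of 43, and genes of AP-1 and activation had 10 of 90 (11.1%), of which Cd44, an adhesion receptor that marks activated and memory T cells, held 4. Th1 genes had 11 of 61 (18%), Th2 genes 6 of 47 (12.8%), follicular helper genes 4 of 29 (13.8%) and housekeeping genes 4 of 49 (8.16%). Many regions near cell cycle genes were at promoters, so the shares were taken again over regions over 1 kb from a start: 0 of 20 for the cell cycle list, 58 of 145 (40.0%) for naive homing and quiescence, 24.2% for T cell receptor signalling, 24.4% for Th1 genes and 25.5% over all naive-open regions. Lists of other cell types had few naive-open regions: 3 of the 6 naive-only regions of the myeloid list were at Itgam, and CD8 and NK genes had 6 of 26, B cell genes 4 of 23 and red cell genes 1 of 14. Lists were short and shared some genes, and none of these shares was tested.

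**Figure D4:**
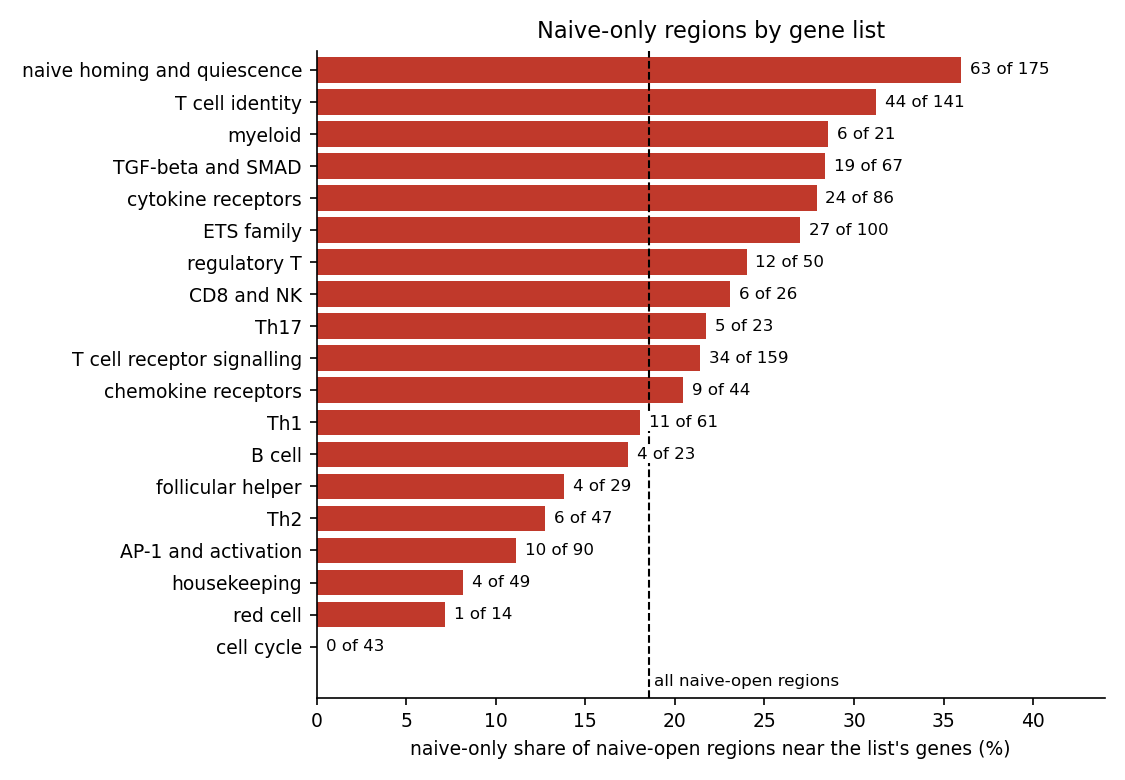
Naive-only share (%) of the naive-open regions near the genes of 19 lists (horizontal axis), with the number of naive-only and naive-open regions beside each bar and the share over all regions as a dashed line. Naive homing and quiescence genes stand at 36.0% and cell cycle genes at 0%.

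Several transcription factor genes of the naive state held many naive-only regions by count. Foxp1 (chr6:98925342-99522746), a forkhead factor needed for quiescence, had 11 naive-only among 37 naive-open regions (29.7%), and 9 were kept. Over all naive-open regions more than 1 kb from a start the share was 25.5%. Another 4 Foxp1 regions had a peak in all 8 polarized libraries and in no naive library. Foxp1 regions with a peak numbered 48 and 55 in naive knockout, 66 and 65 in naive wild-type and 29 to 44 in polarized libraries. The naive counts include the 11 members, whose presence the rule fixed. The strongest, chr6:99388561-99389438, had −log10 q-values of 8.82 and 7.89 in naive knockout and 31.7 and 34.2 in naive wild-type libraries. Lef1 (chr3:131110297-131224357) had 9 naive-only among 17 naive-open regions, and 2 were kept, 1 of them 2.02 kb from the 5′ end of the gene. The number of Lef1 regions with a peak was 7 and 10 in Th1 knockout, 11 and 10 in Th1 wild-type, 14 and 12 in Th2 knockout and 15 and 14 in Th2 wild-type libraries, against 20 and 21 in naive knockout and 29 and 34 in naive wild-type libraries. These counts include the 9 members, whose presence the rule fixed. Without them the naive counts were 11 and 12 in knockout and 20 and 25 in wild-type libraries, so the polarized libraries (7 to 15) overlapped the naive knockout ones. The strongest naive-only region of Lef1, chr3:131190604-131191144, had 10.0 and 11.3 in naive knockout and 15.6 and 28.1 in naive wild-type libraries.

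Bach2 (chr4:32238413-32586109), a repressor of effector genes, had 7 naive-only (30.4%) and 9 kept among 23 naive-open regions. Another 7 Bach2 regions had a peak in all 8 polarized libraries and in no naive library. Its counts of regions with a peak overlapped between polarized libraries (30 to 46) and naive libraries (28 to 46, or 21 to 39 without the 7 members). Tcf7, which encodes TCF1, had 4 naive-only among 7 naive-open regions, 3 of them in the gene body with −log10 q-values of 5.49 to 14.8 in naive knockout and 32.3 to 47.0 in naive wild-type libraries. The antiproliferative genes Btg1 and Btg2 had 3 of 5 and 5 of 10. Ccr7, the chemokine receptor of lymph node entry, had 2 of 5, S1pr1, the receptor of lymph node exit, 2 of 4, and Klf2, a factor that drives S1pr1 expression, 1 of 3. Il7r, the receptor of the survival cytokine IL-7, had 0 of 3.

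T cell identity genes had a share above that over all regions, whereas that of T cell receptor signalling genes was near it. Satb1, whose protein folds chromatin into loops in T cells, had 5 naive-only and 4 kept among 12 naive-open regions. Its strongest member, chr17:51800182-51800682, had −log10 q-values of 9.36 and 14.8 in naive knockout and 68.6 and 95.1 in naive wild-type libraries. Cd5, an inhibitory receptor of T cells, had 4 of 6. Tox had 5 of 16 and Ikzf1, which encodes Ikaros, 4 of 13, whereas Runx3, a factor of CD8 and Th1 cells, had 0 of 4. Fyn, a kinase that acts below the T cell receptor, had 5 of 11, and Prkcq, a kinase of the CD28 pathway, 4 of 17. By contrast, Plcg1, Dgka and Ptpn22 each had 0 of 6, and Nfatc2 had 0 of 5. Ets1 had 5 of 13 and its neighbour Fli1, another ETS factor gene, 5 of 13.

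Cytokine receptors and effector genes also held members. Tgfbr3, a coreceptor for TGF-beta, had 8 naive-only among 14 naive-open regions, and Tgfbr2, the signalling receptor, had 5 of 13. Il10ra, a receptor chain for IL-10, had 4 of 6, and Ifngr1, a receptor chain for interferon-gamma, 4 of 7. Ifng itself had 2 of 3, at chr10:118460168-118460557 and chr10:118461378-118461907, 14.3 and 15.5 kb from the gene. Gata3, the factor of Th2 cells, had 1 of 6.

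**Figure D5:**
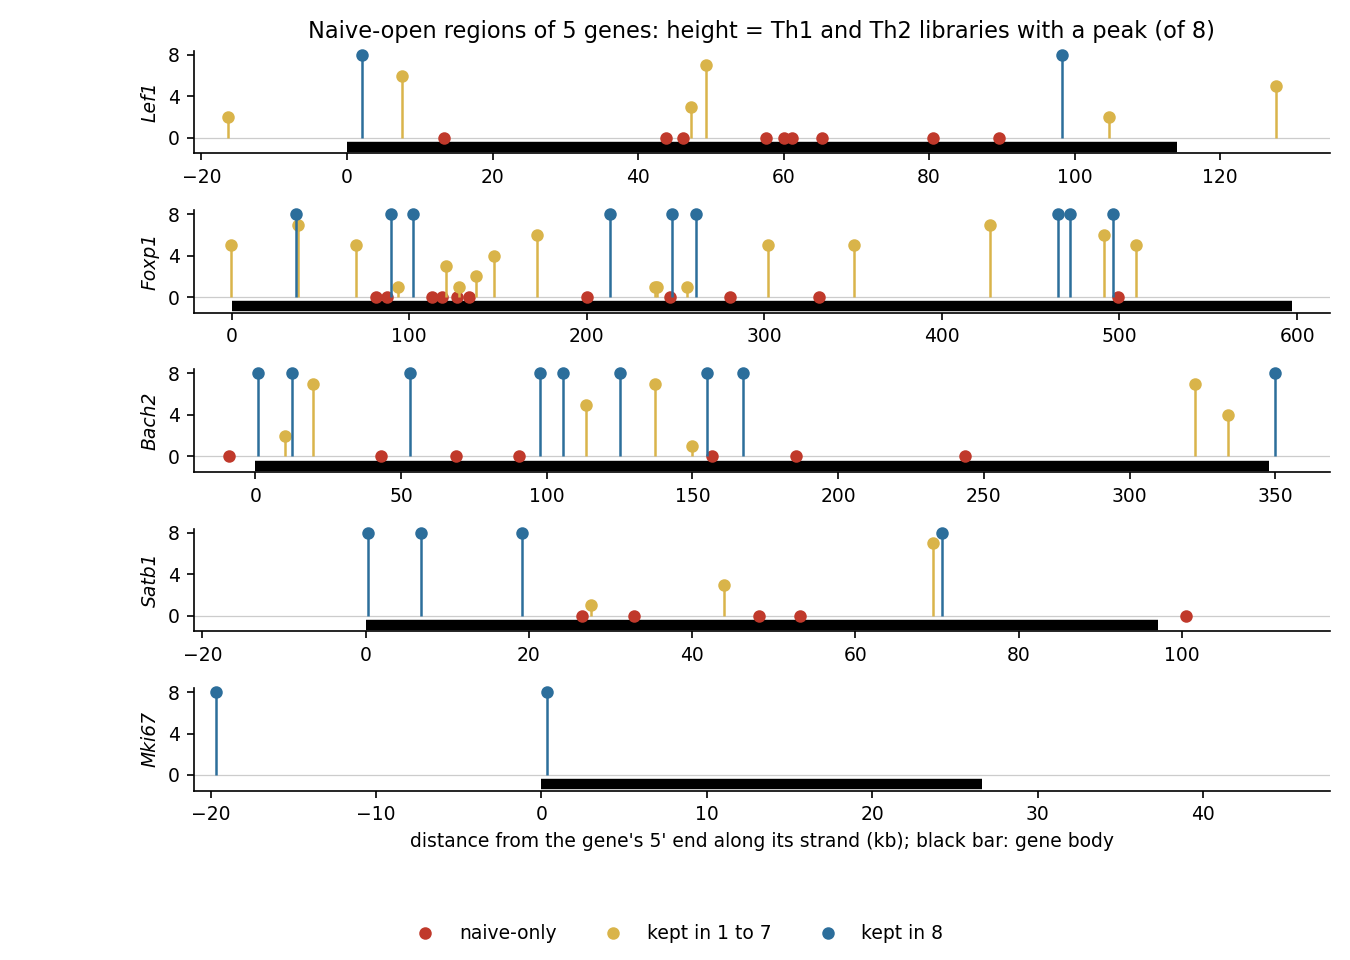
Naive-open regions along Lef1, Foxp1, Bach2, Satb1 and Mki67 by distance (kb) from the 5′ end of the gene, with the number of polarized libraries with a peak (0 to 8) as height and the gene body as a black bar. Naive-only regions lie at 0; Lef1 has 9 and Mki67, a proliferation marker, has none.

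Over all protein-coding genes, 3929 had at least 1 naive-only region within 20 kb, 94 had at least 5, and the highest number was 11. Foxp1 shared that number with Prkce, a protein kinase C gene (11 of 22 naive-open regions), and Sgms1, a sphingomyelin synthase gene (11 of 23). Zfhx3, a large zinc finger and homeobox factor gene, followed with 10 of 14. Cox10, a heme synthesis enzyme gene, had 8 of 9, and 7 of them formed an unbroken run. Its naive-open regions were nearly all naive-only, yet a kept region lay within 1 kb of its listed start. Genes with naive-only regions had a kept region at a listed start about as often as other genes: one lay within 1 kb of such a start in 61.8% to 64.6% of genes with naive-only regions, in classes from 1 to at least 5, against 66.1% of the 8861 genes with naive-open but no naive-only regions. Long genes have more room for regions, and counts per gene were not corrected for length.

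Naive-only regions tended to follow each other along the chromosome. The next naive-open region was also naive-only after 1466 of 5667 naive-only regions (25.9%), against 4199 of 24864 others (16.9%). By chromosome the naive-only share ran between 14.5% on chromosome 7 and 22.4% on chromosome 12, with 16.9% on X. Runs of at least 6 naive-open regions that were all naive-only numbered 12. They included 9 regions over 142 kb at Zfhx3, 7 at Cox10, and 6 over 32.6 kb within Lef1 (chr3:131167697-131200287).

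The longest run, of 11 regions, lay in the T cell receptor alpha and delta locus, chr14:53134678-54153255. This stretch holds 72 annotated V segments, the gene pieces that are joined to make a receptor chain, and no protein-coding gene. Members overlapped Trav11n, Trav13n-4, Trav14n-3, Trav14-1, Trav13-5 and Trdv2-2. All merged regions of the stretch numbered 59, and 0 of them had a peak in any of the 8 polarized libraries. By contrast, 18 and 16 had one in naive knockout libraries and 51 and 54 in naive wild-type libraries. The rule chose the 11 members but not the other 48 regions, which were absent from polarized lists as well. V segments are near copies of one another, so reads can be hard to place there, and how such reads were treated was not given in the sources used here.

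The same kind of region was then chosen in 1 genotype and read in libraries that the choice had not used. Of 46937 regions with a peak in both naive wild-type libraries, 17568 (37.4%) had none in the 4 wild-type polarized libraries. In the 4 knockout polarized libraries, 87.4% of these 17568 had no peak, against 0.208% of regions kept in wild type and 37.8% of all 46937. Chosen in knockout libraries, 9885 of 34808 (28.4%) were naive-only, and 86.1% of them had no peak in wild-type polarized libraries, against 28.4% of all 34808. Chosen against Th1 alone, 76.4% of the 7423 had no peak in Th2 libraries either, against 22.8% of all 30551 naive-open regions. Chosen against Th2 alone, 81.5% of the 6951 had none in Th1 libraries, against 24.3% of all 30551. In both of these shares the regions without a peak are the 5668 members themselves. The regions chosen in 1 genotype include the members too. All these shares therefore describe the lists that the rule used and are no independent support for it. Regions chosen in 1 genotype or cell type were mostly absent from the polarized lists of the other, but all polarized lists share 1 run code.

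Presence in naive cells carried over less well. Of the 17568 regions chosen in wild type, 38.7% had a peak in both naive knockout libraries, against 91.9% of regions kept in wild type. Split by decile of rank in the naive wild-type lists, this share was lower for chosen naive-only than for kept regions in each decile. In the strongest decile the shares were nearly equal. Rank in wild-type lists does not give strength in knockout lists, and whether strength accounts for the difference was not tested. In the weakest decile 12.4% of chosen naive-only and 45.9% of kept regions had a peak in both naive knockout libraries. In the fifth decile these shares were 41.0% and 88.7%, in the eighth 83.0% and 98.9%, and in the strongest they were 573 of 575 and 3512 of 3513 regions. With lists cut to the same length the overall shares were 51.2% and 95.2%. Chosen in knockout, 70.0% of naive-only and 97.0% of kept regions had a peak in both naive wild-type libraries. The naive knockout lists were shorter and had lower −log10 q-values, and each naive genotype was 1 biological sample, so genotype and sample cannot be told apart here. The regions compared were not matched on position.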

How the data were processed

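The submitters' processing notes name BWA, Picard and MACS2 as tools and GRCm38 as the genome build, without versions or settings. Each deposited list held 9 columns: the authors' score, fold enrichment (ratio), −log10 p-value and −log10 q-value of a peak followed its coordinates and name. The score was the deposited −log10 q-value times 10, cut to a whole number, and the highest deposited q-value was 0.0998. All are the authors' own values and served only to rank peaks within a list.

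Peaks on chromosomes 1 to 19 and X were merged where they shared at least 1 bp. Starts of protein-coding and lncRNA genes came from the RefSeq table of GRCm38.p6, and none was used for chromosome 18. All 260 genes of the 19 lists were found. Members and gene lists were chosen with earlier results of these data known. Named genes are the 4 per list with most naive-only regions, the 15 with most, the 10 with the highest share (at least 8 naive-open regions), the genes at the 10 highest-ranked regions, 15 with a start in a member, those at the 5 longest runs, and others that were chosen after their values were seen. The computation was checked on simulated lists. An exact test of 2 against 2 libraries cannot go below 0.333, so none was run. The software was Python 3.11.15 with matplotlib 3.10.9, scipy 1.17.1, pandas 2.3.3 and numpy 2.4.6.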

Additional observations from a re-analysis of the deposited data

How the results depend on the processing

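The naive-only share of naive-open regions was 18.6%. It was 21.2% with peaks of −log10 q of at least 2 in all lists, 17.6% with that limit in naive lists alone, 20.7% with lists of equal length, 26.2% when peaks had to cover 50% of a region, 20.2% without the Th2 knockout libraries, 24.1% (9263 regions) with 3 or 4 naive libraries and 23.8% with at most 1 polarized library. Merged from wild-type libraries alone there were 17758 such regions (37.6%, 5.75% within 1 kb of a start), and from knockout libraries alone 10055 (28.7%, 6.39%). Leaving out 1 library at a time gave 5813 to 7580 regions, shares of 19% to 21.8% and 5.13% to 5.30% within 1 kb of a start. The highest count came without naive knockout replicate 1. Within 2.5 kb of a start lay 10.1%, and 8.80% lay within 1 kb when both ends of uncovered genes counted. Regions chosen in wild type had no peak in knockout polarized libraries in 88.8% with the stricter q-value and 89.9% with equal lists, both tried after seeing the data.

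Membership changed more than these shares. Equal lists kept 62.8% of the members, 50% cover 77.0% and the stricter q-value 89.1%. The naive homing and quiescence share ran between 32.9% and 51.6% over 25 settings, each above the share over all regions. AP-1 and activation, Th2, cell cycle and housekeeping genes were below it in all 25. In knockout libraries alone the B cell and red cell lists reached 55.1% and 56.7%, or 26.4 and 27.9 percentage points above the share over all regions in that setting. Of the 25 settings, the B cell list was above that share in 12 and the red cell list in 1. The number of lists above the share over all regions was 11, and 11 to 14 without 1 library. No paired analysis was run, since no result comes from a test.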
